A study of Mus musculus with 30 samples.

Results

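Imprinted genes are read mainly or only from the copy inherited from 1 parent, because a methylation mark set in the egg or the sperm is kept on that copy. The mark is copied at each cell division by the methyltransferase Dnmt1 with Uhrf1, and is held through the early embryo by zinc finger proteins such as Zfp57, which bring Trim28 and Setdb1 to it. Many of these genes set the growth of the embryo and placenta, and embryonic stem cells in culture are known to lose the mark at some of them. The 50 genes described here were taken by name from 20 such regions, 27 of them usually read from the paternal and 23 usually from the maternal copy, and all 50 were found among the 55240 genes that could be placed on the annotation.

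The cells were female mouse embryonic stem cells (mESCs) of an F1 hybrid with 1 genome of 129/Sv and 1 of Cast/Ei, so that reads over a base that differs between the strains can be given to the 129 or the Cast allele. Bulk RNA-seq was made from 30 libraries of 17 conditions, including XX wild type, XX Rnf12+/- (heterozygous for a deletion in Rnf12), XCastO129 (the 129 X chromosome lost) and X129OCast (the Cast X chromosome lost), each with 2 libraries. The other 22 libraries came from 13 lines with a heterozygous deletion of a stretch of the X chromosome on top of Rnf12+/-, all of which keep a neomycin cassette, and lines A, B, AB and C-G are 1 clone each. Lines I-TEL and J came from a second Rnf12+/- founder and the 11 others from a first. All members lie on autosomes, so none sits inside a deletion. The cells grew on irradiated mouse embryonic fibroblasts, which were reduced by pre-plating before RNA was extracted. The sources used here do not say which strain was the mother, so 129 and Cast are not read below as maternal or paternal.

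Total counts were 8816184 to 21181405 per library. Reads given to an allele were about 12.5% of these (the median of each set) in the 26 paired-read libraries and 21.9% to 22.0% in the 4 XO libraries, which were sequenced as single reads and as a set of their own. In any comparison of XO with XX, the number of X chromosomes, the read type and the library set thus cannot be told apart. The labels do not say how the 2 libraries of XX wild type, XX Rnf12+/- or an XO line relate. The study describes replicates as independent clones. The p-values measure the spread between these libraries. Rnf12, the ubiquitin ligase gene deleted on the 129 X chromosome, was at 211 and 193 TPM in XX wild type, with 718 and 689 counts of 129 beside 769 and 742 of Cast. It was at 77.6 and 79.7 TPM in XX Rnf12+/-, with 26 and 37 counts of 129 beside 477 and 520 of Cast, and at 50.4 to 144 TPM in the deletion lines. It stood at 71.2 and 77.8 TPM in XCastO129, which keeps the Cast copy, and at 3.53 TPM in both X129OCast libraries, with 24 and 17 counts of 129 and 0 of Cast. X129OCast thus also differs from XX Rnf12+/- and from XCastO129 in the level of Rnf12, which cannot be told apart from the X chromosome that was lost. Over all autosomes, 49.8% to 54.0% of allelic reads were from 129. The 10 stem cell markers summed to 6573 to 8986 TPM (a level scaled for gene length and library size) over the 30 libraries.

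Few members were read from 1 allele. A 129 share was given where a member had at least 20 allelic counts in a library, which held for 740 of the 1500 pairs of a member and a library, and 657 of those 740 shares (88.8%) lay between 30% and 70%. Of the 22 members that reached this depth in at least 20 libraries, 1 had a median share of at least 70% or at most 30%, against 8.42% of the 7895 autosomal genes of the same depth, and 0 of 22 had a median of at least 90% or at most 10%, against 2.34%. The medians of the 22 ran from 39.3% (Peg10) to 75.1% (Plagl1), with 11 above and 11 below 50%. The 11 usually maternal members had a median of medians of 52.8% and the 11 usually paternal members of 48.6%. Only 5 of the 740 shares were at least 90% or at most 10%, namely H19 in deletion AB and in a deletion J library, Grb10 in an XX Rnf12+/- and a deletion E library, and Mest in a deletion C library.

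**Figure D1:**
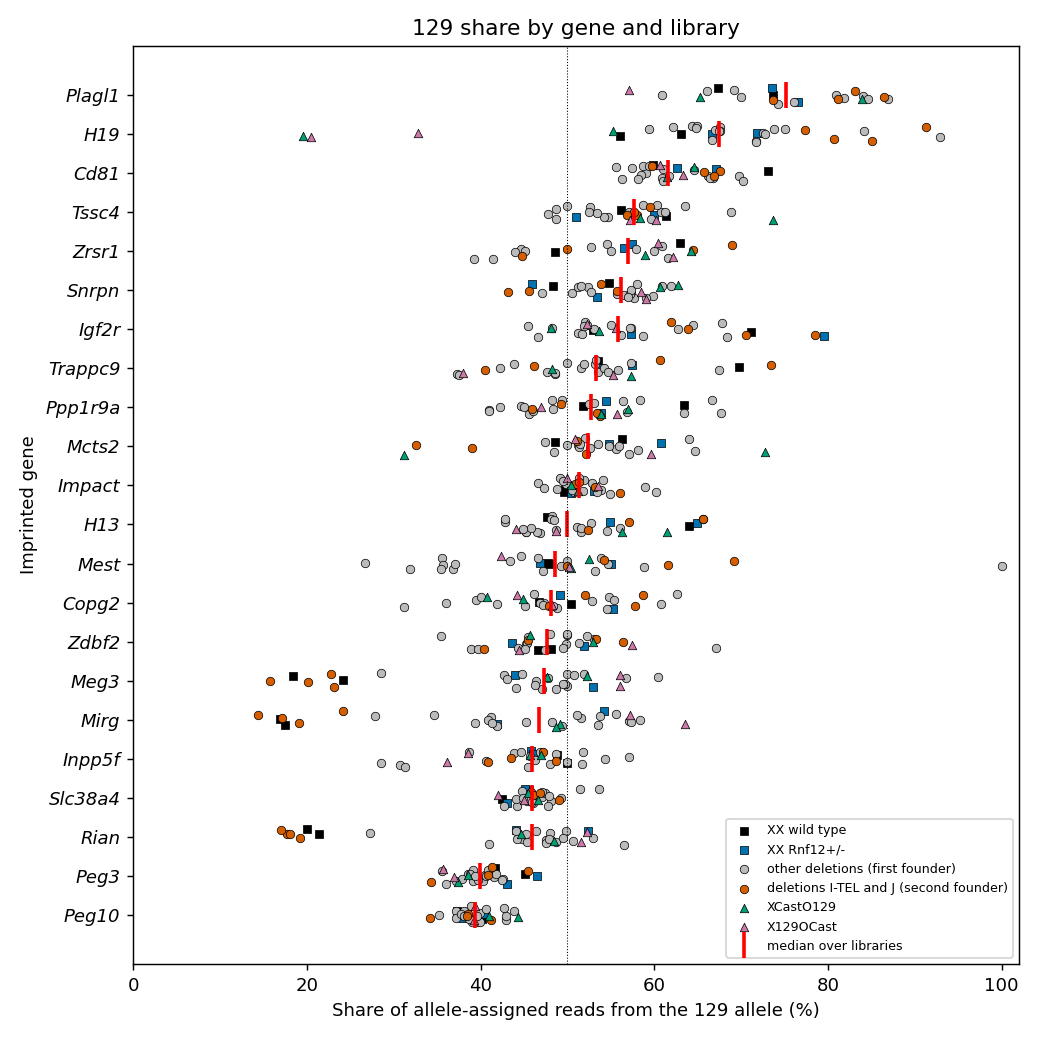
Share of allele-assigned reads from the 129 allele (x axis, %) for the 22 imprinted genes with at least 20 allelic counts in at least 20 libraries (y axis, ordered by median); each point is 1 library, colour and shape give the condition, and the red bar is the median over libraries. Most points lie between 30% and 70%; Meg3, Mirg and Rian fall below 25% in the XX wild type, I-TEL and J libraries, and H19 lies at 19.6% to 32.9% in 3 XO libraries.

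The other 28 members had too few allelic counts in most libraries, and 14 of them in all 30. Some of those 14 were well read but had few allelic reads: Gnas, which encodes the stimulatory G protein alpha subunit, had 44.6 to 94.4 TPM with 64 allelic counts over all libraries, and Nnat, a small membrane protein gene, had 1.54 to 23.9 TPM with 1 allelic count. Commd1 had a median of 18.0 TPM, and Mkrn3 (2.16 to 11.1 TPM), Slc22a18 (0.18 to 6.93), Sgce (1.13 to 3.93), Nespas (1.35 to 4.77) and Nap1l5 (0.54 to 2.61) were lower. Igf2, the growth factor gene beside H19, stood at 0.47 to 2.53 TPM with 0 allelic counts, and 62.8% of its exon bases are shared with another gene model on its strand. Asb4, Airn, Kcnq1 and Rtl1 stayed at or below 1.5 TPM. Snurf had 0 counts in every library, and 100% of its exon bases are shared with other gene models on its strand, Snrpn among them. Seen at full depth in 1 to 19 libraries were Ube3a (15), Dlk1 and Kcnq1ot1 (14 each), Peg13 (13), Grb10 (12), Blcap (8), Usp29 and Phlda2 (5 each), Ndn, Magel2, Peg12 and Cdkn1c (2 each), and Zim1 and Ascl2 (1 each). Zrsr1 and Mcts2 are retrogenes whose source genes are on the X chromosome, and reads shared with those copies make their values uncertain.

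The promoters of the members were richer in CpG than most. RefSeq holds 58 distinct promoter windows (250 bases before to 50 after a start, GRCm38.p6) for 40 members, and 10 members had none: Impact was left out, and Cdkn1c, Peg10, H19, Kcnq1, Nespas, Trappc9, Sgce, Peg13 and Rtl1 had no entry. Snrpn and Snurf share a window, and a pair of Mest windows overlap almost fully. The median was 15 CpG in a member promoter and 7 in all 32817. The 6 letters TGCCGC, which Zfp57 is known to bind when the CpG is methylated, were searched on both strands. They were in 14 of 58 member promoters (24.1%) and in 3809 of 32817 (11.6%). The letters themselves hold a CpG, and promoters of equal CpG count were not compared, so the shares do not show an excess beyond CpG content. Both of the overlapping Mest windows are among the 14. A match is a description of the letters and not a binding site. A promoter window of each of Meg3, Plagl1 and Snrpn is shown because these genes recur in the results below and it holds the letters. The choice was made after the values were seen. TGCCGC or its reverse complement is in capitals. The other windows of Meg3 and Snrpn do not hold the letters. The promoters of Peg12, Magel2, Mirg, Rian, Phlda2, Igf2r, Cd81, Ndn and Ube3a, which also recur, hold none. Meg3 lies at chr12:109540746-109541045 on the plus strand, Plagl1 at chr10:13090582-13090881 on the plus strand, and the promoter that Snrpn and Snurf share at chr7:60005150-60005449 on the minus strand.
Meg3: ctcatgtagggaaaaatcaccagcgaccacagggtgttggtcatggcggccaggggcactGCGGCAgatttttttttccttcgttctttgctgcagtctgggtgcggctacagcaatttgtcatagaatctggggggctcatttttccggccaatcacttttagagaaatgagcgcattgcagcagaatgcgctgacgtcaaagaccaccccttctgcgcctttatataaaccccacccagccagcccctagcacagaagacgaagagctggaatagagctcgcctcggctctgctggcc
Plagl1: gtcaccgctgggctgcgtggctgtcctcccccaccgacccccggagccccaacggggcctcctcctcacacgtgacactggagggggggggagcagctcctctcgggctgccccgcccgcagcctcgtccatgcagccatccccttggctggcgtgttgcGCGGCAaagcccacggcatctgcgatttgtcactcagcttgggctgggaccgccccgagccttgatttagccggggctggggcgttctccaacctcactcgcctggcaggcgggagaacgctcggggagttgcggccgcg
Snrpn: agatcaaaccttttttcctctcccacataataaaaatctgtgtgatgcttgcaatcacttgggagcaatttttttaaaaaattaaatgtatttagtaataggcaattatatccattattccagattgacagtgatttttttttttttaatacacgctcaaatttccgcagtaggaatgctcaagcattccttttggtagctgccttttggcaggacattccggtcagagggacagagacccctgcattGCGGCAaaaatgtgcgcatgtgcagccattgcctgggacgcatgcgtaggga

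On distal chromosome 12, the usually maternal non-coding RNAs Meg3, Rian (host of small nucleolar RNAs) and Mirg (host of miRNAs) were split by founder line, and so were the genes around them. The 60 other genes within 5 Mb had a pooled 129 share of 22.2% and 23.7% in XX wild type and 22.1% to 23.3% in the 4 I-TEL and J libraries. It was 61.9% to 64.9% in the 24 others. Their median level, against the XX Rnf12+/- mean, was higher by 0.38 and 0.48 (log2) in XX wild type and by 0.43 to 0.52 in I-TEL and J, and differed by -0.05 to 0.37 in the others. The imbalance was wider than the imprinted region. In each 10 Mb bin of chromosome 12 the 6 libraries of XX wild type, I-TEL and J had a lower 129 share than any of the 24 others. From the start to 60 Mb it was 43.7% to 53.3% in the 6 and 59.7% to 69.5% in the 24, and from 70 Mb to the end 20.2% to 37.5% and 59.0% to 74.1%. Median levels against the XX Rnf12+/- mean were lower in the 6 before 60 Mb. In the bin from 0 to 10 Mb they were lower by 0.40 to 0.49 (log2), and the 24 others stood at -0.25 to 0.13. In the bin from 50 to 60 Mb they were lower by 0.46 to 0.61, the XO lines were lower by 0.39 to 0.47, and the rest stood at -0.16 to 0.10. DNA was not measured, so an unequal number of copies of the chromosome cannot be told apart from unequal reading of equal copies.

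Meg3 had a 129 share of 24.2% and 18.4% in XX wild type, from 765 and 1125 allelic counts, and of 53.0% and 44.0% in XX Rnf12+/-. In I-TEL it was 23.2% and 15.8%, and in J 22.7% and 20.1%. It was 47.6% and 52.3% in XCastO129, 56.1% and 56.0% in X129OCast, and 56.7% and 60.4% in deletion E. The other 15 first-founder libraries, leaving out the second deletion I clone, lay at 42.8% to 51.9%. No library of XX wild type, I-TEL or J overlapped with these. Rian was at 21.4% and 20.0% in XX wild type, 17.0% to 19.2% in I-TEL and J, and 52.4% and 44.1% in XX Rnf12+/-. Mirg was at 16.9% and 17.4%, 14.4% to 24.2%, and 54.2% and 41.9% in the same libraries.

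In the comparison of XX Rnf12+/- with XX wild type, 3 of 26 members tested had a changed ratio of 129 to Cast counts (edgeR quasi-likelihood test, Benjamini-Hochberg adjusted p under 0.05), against 3.05% of the 8781 genes tested, and all 3 were these RNAs. The log2 ratio rose by 1.74 in Meg3 (SE 0.19, adjusted p = 5.4e-09), by 1.76 in Rian (SE 0.15, adjusted p = 6.3e-12) and by 2.06 in Mirg (SE 0.29, adjusted p = 1.2e-06). The neighbours moved more, with a median rise of 2.41, and 57 of 60 passed the test. Second against first founder lines gave -1.79 for Meg3, -1.97 for Rian and -1.95 for Mirg, beside a median of -2.50 in 57 neighbours, all called. Dlk1, the usually paternal membrane protein gene of this region, had 14 libraries of full depth. Its share was 44.4% and 24.0% in XX wild type, 52.8% and 52.4% in XX Rnf12+/-, and 52.5% to 71.2% in the XO lines. The difference between XX Rnf12+/- and XX wild type did not pass (log2 0.86, SE 0.60, adjusted p = 0.88). Rtl1, usually paternal and read mostly in the placenta, was at or near 0 in every library.

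Where the neighbours stood at 61.9% to 64.9%, Meg3, Rian and Mirg mostly stood lower, near equal shares of both alleles. A clone of deletion I set itself apart here. Its Meg3 share was 28.5% (95% Wilson interval 24.2% to 33.2%, 379 counts), its Rian share 27.3% and its Mirg share 39.4%, while its neighbours stood at 63.3%. The sister clone of the same deletion had 42.8%, 44.2% and 41.3%.

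**Figure D2:**
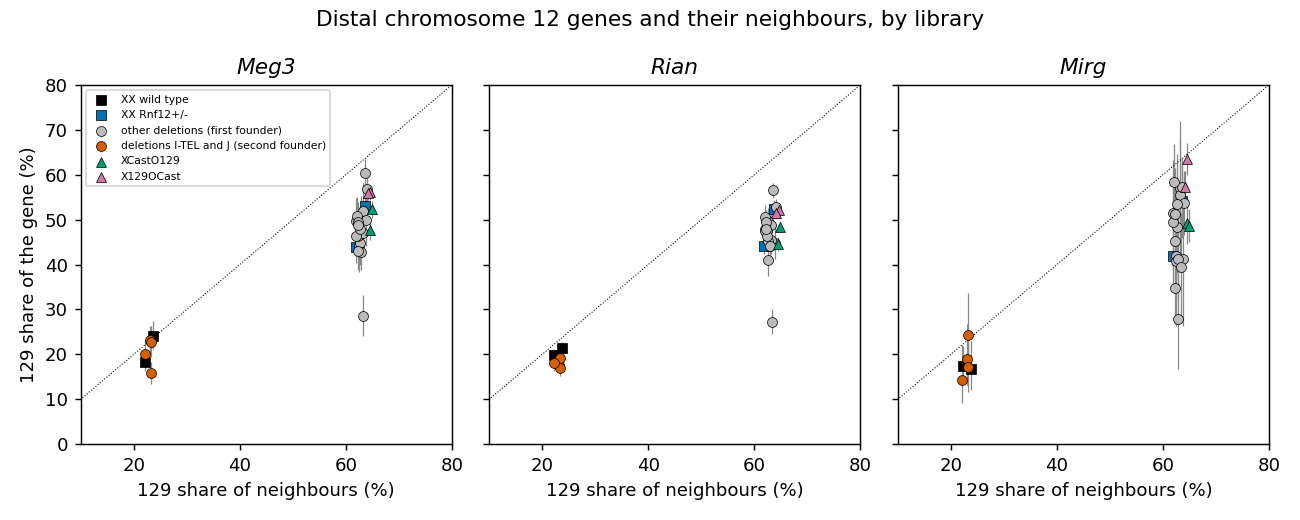
129 share (y axis, %) of Meg3, Rian and Mirg against the pooled 129 share of the 60 genes within 5 Mb (x axis, %) in each of 30 libraries, with 95% Wilson intervals; the dotted line marks equal shares. The XX wild type, I-TEL and J libraries lie at the lower left, the others at the right and mostly below the line, and 1 deletion I clone at the right lies at 28.5% for Meg3 and 27.3% for Rian.

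H19, the non-coding RNA made beside Igf2 and usually maternal, leaned to 129 in every XX and deletion library and to Cast in 3 of the 4 XO libraries. Its 129 share was 56.1% to 92.9% over the 26 XX and deletion libraries (median 69.6%). It was 19.6% and 55.2% in the XCastO129 libraries, and 20.5% and 32.9% in X129OCast. The highest XO value lay just under the lowest of the 26, so the ranges did not overlap, and the 61 genes within 5 Mb of H19 stood at 51.8% to 54.3% in the XO and 49.4% to 54.8% in the other libraries. Against XX Rnf12+/- (71.8% and 66.7%), the log2 ratio fell by 2.55 in X129OCast (SE 0.44, adjusted p = 7.0e-05) and by 1.75 in XCastO129 (SE 0.41, adjusted p = 0.0057). Leaving out the XCastO129 library at 19.6% took the second value to -0.85 (adjusted p = 0.12), and leaving out the XX Rnf12+/- library with the higher Col1a1 level to -1.67 (adjusted p = 0.10). The XO lines did not differ from each other in the test (log2 0.80, SE 0.40, adjusted p = 0.54).

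The total level of H19 was 281 and 491 TPM in XX wild type, 120 and 112 TPM in XX Rnf12+/-, 126 and 207 TPM in XCastO129 and 96.5 and 96.6 TPM in X129OCast. Every XX Rnf12+/- library was below every XX wild type library, and H19 was the 1 member of 45 called in that comparison (log2 -1.71, SE 0.32, adjusted p = 0.0042), against 2.94% of 14950 genes. Leaving out the XX wild type library at 491 TPM ended the call (log2 -1.25, adjusted p = 0.092). In the deletion lines the level ran from 104 to 464 TPM.

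**Figure D3:**
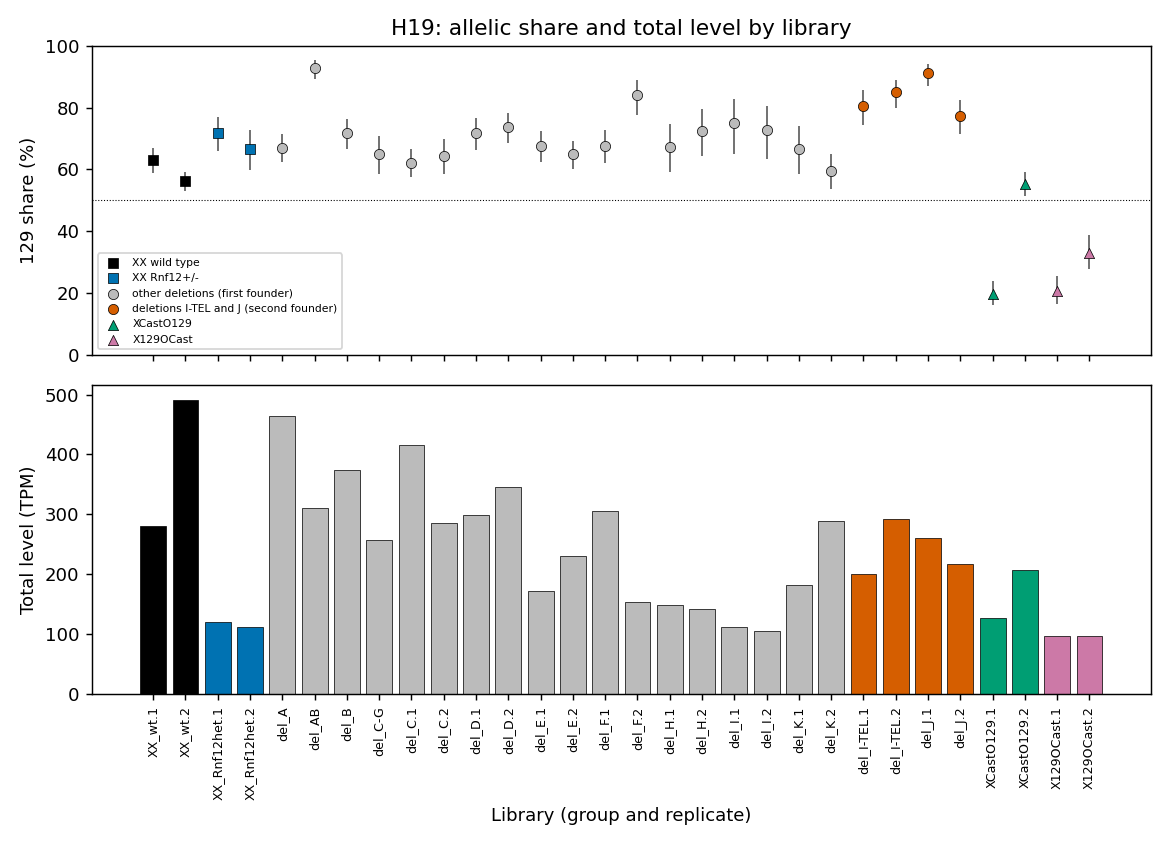
129 share of H19 with 95% Wilson intervals (upper panel, %) and its total level (lower panel, TPM, bars from 0) in each of 30 libraries, coloured by condition. The XX and deletion libraries sit at 56.1% to 92.9%, and 3 of the 4 XO libraries at 19.6% to 32.9%.

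Plagl1, the gene of the zinc finger protein Zac1 and usually paternal, was the 1 member with a median share over 70%. Its 129 share was 57.1% to 87.0% over 22 libraries, above 50% in each. The level spread far more than the share: 36.4 and 24.6 TPM in XX wild type, 22.5 and 11.7 in XX Rnf12+/-, 2.34 and 6.84 in XCastO129, 1.76 ± 0.28 (SD, n = 2) in X129OCast, 2.92 to 9.32 in the first-founder lines of the 20-library set and 15.8 to 19.4 in I-TEL and J. No allele comparison called it (adjusted p 0.66 or more), apart from the test of balance below.

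A constant lean to 1 allele was seen in several members. Over the 26 paired-read libraries, 15 of 25 members tested departed from the autosomal balance of the alleles in the library, against 66.6% of 8488 genes. Such a departure was thus not particular to the members. Of these members, Copg2 lost its call in 5 of 5 alternative fits and Zdbf2 in 2 of 5. Peg10, a retrotransposon-derived placental gene, had a 129 share of 34.2% to 44.4% in all 30 libraries, and Peg3, a zinc finger gene, of 34.3% to 46.6%. Both are usually paternal, and both were below 50% in every library. The 12 other genes within 5 Mb of Peg10 had a pooled 129 share of 40.1% to 49.6%, and a median over genes of 38.7% to 54.2%. The 7 within 2 Mb of Peg10 had a pooled share of 45.3% to 55.3%. The 35 within 5 Mb of Peg3 stood at 54.4% to 64.1%, but the 12 within 2 Mb of it at 38.4% to 50.2%. Cd81, a tetraspanin gene, was at 55.6% to 73.0% and so above 50% in every library. Slc38a4, an amino acid transporter gene, was at 42.1% to 53.6% (log2 -0.33, SE 0.03, adjusted p = 1.6e-10). Impact, a regulator of the kinase Gcn2 with 19048 allelic counts in all, was at 46.6% to 60.2% and was not called. A lean of the read alignment to 1 strain at a gene was not tested.

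Shares spanned at least 40 points between libraries in 5 of 22 members, against 14.9% of autosomal genes of that depth. These were H19 and Mest (73.3 points each), Mirg (49.2), Meg3 (44.6) and Mcts2 (41.6). Mest, a usually paternal hydrolase-like gene, had 34.7 to 166 TPM, with a median share of 48.6%. In 1 deletion C clone all 21 allelic counts were 129 (95% Wilson interval 84.5% to 100%) at 34.7 TPM, the lowest level of all libraries. The sister clone had 37.0% at 72.4 TPM. Deletion A had 26.7% of 45 counts at 90.1 TPM. Mcts2 had 31.1% and 72.7% in the XCastO129 libraries, from 55 to 61 counts.

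Igf2r, the receptor that clears Igf2, and Grb10, an adaptor that dampens insulin signalling, are both usually maternal. Both had high 129 shares in libraries with much RNA of fibroblast genes, and also in some with less. Col1a1, the collagen gene that marks fibroblasts, was at 116 to 182 TPM in 4 libraries (1 of XX wild type, 1 of XX Rnf12+/- and both of deletion E) and at 16.2 to 97.4 TPM in the other 26. Of its allelic counts 98.8% were 129, as were 98.6% in Lox and 100% in Postn. The other markers with allelic counts ran from 63.5% (Sparc) to 100% (Lum, from 12 counts), with 64.1% in Fn1 and 68.4% in Thy1. The 15 fibroblast markers summed to 644 to 1641 TPM, with all 15 above 0 in every library, and Fn1 made up 322 to 901 TPM of it. Igf2r was at 71.1% and 53.0% in XX wild type, 79.6% and 57.4% in XX Rnf12+/-, and 62.8% and 64.4% in deletion E. Grb10 was at 81.8% and 45.8%, at 91.4% and 45.0%, and at 73.3% and 93.3% in the same libraries, from 20 to 35 counts each. In the XX pairs the first library is the one with more Col1a1, and in deletion E both are high. Among the other libraries Igf2r reached 78.5% in a deletion J clone with 97.4 TPM of Col1a1. Igf2r was also at 70.5% in an I-TEL clone (56.8 TPM), 68.4% in a deletion D clone (82.9 TPM) and 67.8% in deletion A (65.2 TPM). The sister deletion D clone had 52.1% at 87.1 TPM, and an XCastO129 library 53.6% at 89.0 TPM. Grb10 was at 73.1% (26 counts) in an X129OCast library with 67.9 TPM of Col1a1, and at 50.0% and 61.3% in the deletion D clones. The part of fibroblast RNA in these shares was not tested, and in bulk RNA fewer cells of a type cannot be told apart from less RNA per cell.

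**Figure D4:**
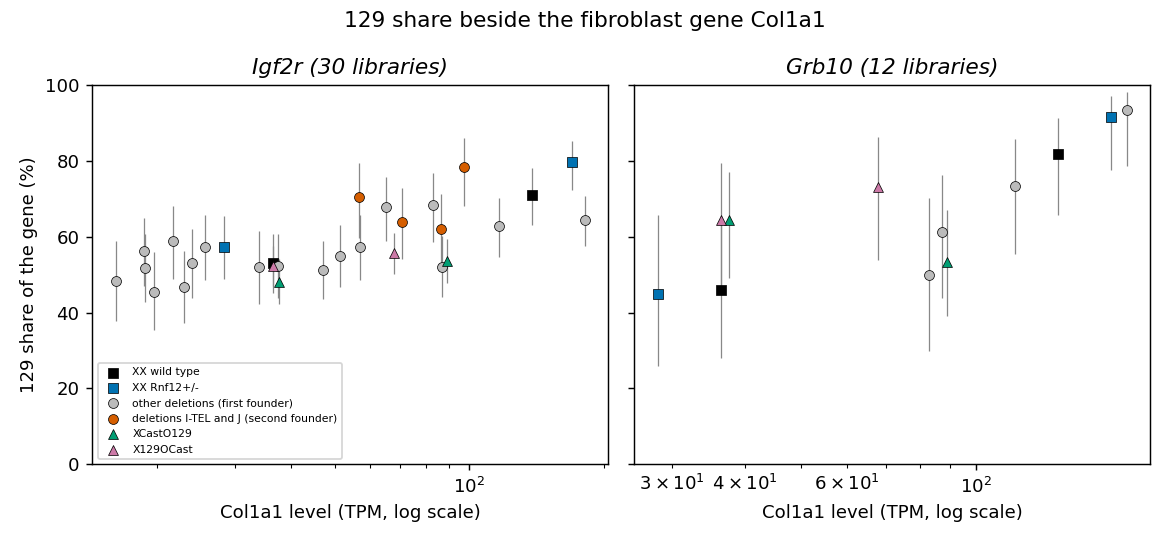
129 share of Igf2r (30 libraries) and Grb10 (12 libraries), with 95% Wilson intervals (y axis, %), against the level of Col1a1 (x axis, TPM, log scale), coloured by condition. The points over 100 TPM are 4 libraries, at 62.8% to 79.6% for Igf2r and 73.3% to 93.3% for Grb10.

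Between founders, 7 of 22 members tested differed in allele ratio (9.41% of 7937 genes called). Besides Meg3, Rian and Mirg these were H19 and Igf2r, higher in 129 in I-TEL and J, the signal peptide peptidase gene H13, also higher, and Snrpn, lower. H19 stood at 77.4% to 91.2% in I-TEL and J and at 59.4% to 92.9% in the 16 first-founder libraries (log2 1.08, SE 0.28, adjusted p = 0.0060), so that the groups overlapped. Igf2r was at 62.0% to 78.5% against 45.5% to 68.4% (log2 0.81, adjusted p = 0.0058), with Col1a1 at 56.8 to 97.4 TPM in I-TEL and J and at 16.2 to 87.1 TPM in the other lines. H13 gave 0.72 (adjusted p = 0.035) and Snrpn -0.43 (adjusted p = 0.026). Leaving out J clone 1 ended the calls of H19, Igf2r and Snrpn (adjusted p 0.11, 0.10 and 0.22), I-TEL clone 1 that of Snrpn (0.21), and either I-TEL clone that of H13 (0.12 and 0.34). Among the 12 lines of this set, 4 members differed (Rian, Meg3, Mirg and H19), against 5.65% of genes. H19 was no longer called without deletion AB (adjusted p = 0.25), nor without either deletion C clone, I-TEL clone 2, J clone 1 or K clone 2 (0.056 to 0.081). In the test of XCastO129 against X129OCast 0 of 26 members were called and 5 had an unadjusted p under 0.05 (0.137% of genes called), and for deletion E against XX Rnf12+/- 0 of 26 and 3 (0% of genes called).

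Snrpn, which encodes a small ribonucleoprotein and is usually paternal, was read from both alleles in every library (43.2% to 62.8% 129). In the deletion lines its share ran from 43.2% (I-TEL clone 1) to 61.9% (deletion B). That range also held every XO library except XCastO129 library 1, so the higher shares were not particular to the XO lines. Both XO lines were higher than XX Rnf12+/- (45.9% and 53.4%), with 62.8% and 60.7% in XCastO129 (log2 ratio 0.79, adjusted p = 0.0084) and 58.5% and 59.0% in X129OCast (0.63, adjusted p = 0.030). Without the first XX Rnf12+/- library these were 0.47 and 0.32, and neither was called (adjusted p 0.41 and 0.67). The call was also lost without XCastO129 library 1 (0.074) in the first and without either X129OCast library (0.17 and 0.14) in the second comparison. With H19, Snrpn made up the 2 of 26 members called in XCastO129 (4.45% of genes), and Mirg (0.82, adjusted p = 0.032) was the third in X129OCast (6.2%). Mirg was not called without the first X129OCast library (0.58, adjusted p = 0.35) or without the second XX Rnf12+/- library (0.51, adjusted p = 0.50), nor with limma, with only the groups compared or with 1 size for both alleles (adjusted p 0.40, 0.070 and 0.088). Snrpn shares 27.3% of its exon bases with other gene models on its strand.

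Total levels of many members differed between the XO lines and XX Rnf12+/-, and so did those of many other genes. Whether members were called more often was not tested. In XCastO129 against XX Rnf12+/-, 23 of 45 members were called, 14 higher and 9 lower, beside 35.5% of 14950 genes (17.7% higher and 17.7% lower), and the median log2 difference was 0.13 over the members and -0.01 over all genes. In X129OCast it was 27 of 45, 16 higher and 11 lower, beside 48.1% of genes (23.5% higher and 24.6% lower), with medians of 0.08 and -0.03. Both comparisons use the same XX Rnf12+/- libraries.

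The largest rises in XCastO129 were those of Magel2, Mirg, Meg3, Nnat and Phlda2. Meg3 stood at 65.0 and 66.9 TPM in XX Rnf12+/-, 125 and 185 TPM in XCastO129 and 204 and 212 TPM in X129OCast (log2 1.34, SE 0.21, adjusted p = 9.1e-05, and 1.80, SE 0.22, adjusted p = 2.1e-06), every XO library above the XX ones. Its share of 129 was near 50% in all of them, and the genes around it had a median level within 0.04 of that of XX Rnf12+/-. Phlda2, which limits placental growth, was at 28.3 ± 0.67 TPM (SD, n = 2) in XX Rnf12+/-, 60.8 ± 13.7 TPM in XCastO129 and 79.0 ± 3.23 TPM in X129OCast. Nnat gave 1.31 and 1.24. Magel2, of the MAGE family, gave 1.54 (adjusted p = 0.034) and 2.74 (adjusted p = 0.00047), and the first was not called without the second XCastO129 library (0.71, adjusted p = 0.41), nor without the second XX Rnf12+/- library (1.07, adjusted p = 0.20). In X129OCast Snrpn rose as far as these, from 208 and 212 to 543 and 542 TPM (1.52, SE 0.16, adjusted p = 5.1e-07).

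The largest falls were those of Plagl1, Ndn, Cd81, Ube3a and Mcts2 in XCastO129, and of Peg12, Plagl1, Ndn, Mkrn3 and Cd81 in X129OCast. Plagl1 fell by 1.80 (SE 0.37, adjusted p = 0.0010) and 3.14 (SE 0.41, adjusted p = 6.0e-06) on the log2 scale. Its XCastO129 value was -2.77 without the second and -1.22 without the first XCastO129 library, and the call was lost with only the groups compared (adjusted p = 0.098). In each XX pair the library with more Plagl1 also had more Col1a1, the fibroblast collagen gene (138 and 36.4 TPM in XX wild type, 170 and 28.3 TPM in XX Rnf12+/-), and without the 4 libraries over 100 TPM of it the value was -1.26. The part of fibroblast RNA in it was not tested. Ndn, which encodes necdin, fell by 1.06 (adjusted p = 0.0039) and 1.35 (adjusted p = 0.00041). Cd81 fell from 253 ± 7.17 TPM (SD, n = 2) in XX Rnf12+/- to 145 ± 0.40 TPM in XCastO129 and 107 ± 2.19 TPM in X129OCast. Ube3a, a ubiquitin ligase gene, fell by 0.67 and 0.53, and Mkrn3 gave -1.14 (adjusted p = 0.019) in X129OCast, a call lost without either X129OCast library (adjusted p 0.097 and 0.070) and without the second XX Rnf12+/- library (-0.88, adjusted p = 0.12). Without the XCastO129 library with the lower Ndn level, the value of Ndn was -0.59 (adjusted p = 0.069), and without the first XX Rnf12+/- library -0.71 (adjusted p = 0.062). Within the Snrpn region of chromosome 7, Snrpn and Magel2 were higher and Ndn and Ube3a lower in both XO lines, beside Peg12 and Mkrn3 lower in X129OCast.

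**Figure D5:**
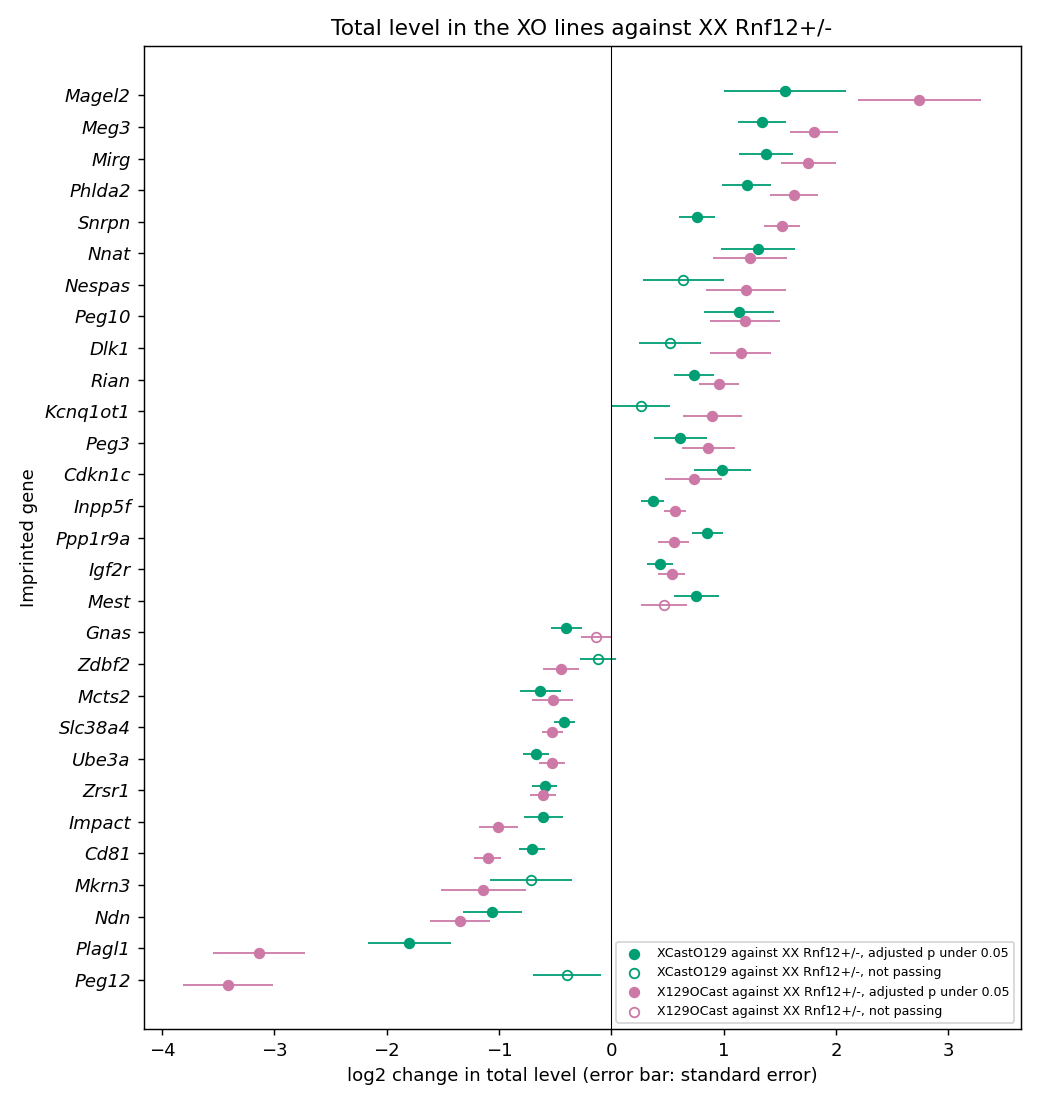
log2 change in total level of each XO line against XX Rnf12+/- (x axis, bars are standard errors) for the 29 imprinted genes called in at least 1 of the lines (y axis); filled points passed an adjusted p of 0.05. Meg3, Mirg and Phlda2 lie to the right in both lines, Plagl1 and Ndn to the left, and Peg12 is at -3.41 in X129OCast and at -0.40, not called, in XCastO129.

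The XO lines differed from each other in 3 of 45 members, against 6.45% of genes. Peg12, a gene of the FRAT family that binds GSK3, was at 8.36 and 5.68 TPM in XX Rnf12+/-, 5.51 and 4.42 TPM in XCastO129 and 0.75 and 0.41 TPM in X129OCast, with every X129OCast library below all others of the series. The log2 difference between the XO lines was 3.01 (SE 0.41, adjusted p = 0.00062). Snrpn was at 322 and 340 TPM in XCastO129 and lower there than in X129OCast (log2 -0.76, SE 0.16, adjusted p = 0.0090), a call that was lost without either X129OCast library (0.071 each). Tssc4, a factor of spliceosome assembly, gave -0.39 (adjusted p = 0.036), a call that was lost in each fit that left out a library of an XO line.

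Second and first founder lines differed in level in 10 of 44 members (19% of 14295 genes). Phlda2 was at 12.9 ± 2.67 TPM (SD, n = 4) in I-TEL and J and 52.0 ± 17.8 TPM (SD, n = 16) in the first-founder lines, a log2 difference of -2.04 (SE 0.29, adjusted p = 3.0e-05). Of the other members of the Kcnq1 region 3 were also lower: the transporter gene Slc22a18 (-2.44, adjusted p = 0.0013), the cell cycle inhibitor gene Cdkn1c (-1.37, adjusted p = 0.0022) and the trophoblast factor gene Ascl2 (-1.41, adjusted p = 0.019, a call lost in 3 of 25 alternative fits). In the same region Cd81 (-0.27, adjusted p = 0.077), the non-coding RNA Kcnq1ot1 (0.40, adjusted p = 0.41) and Tssc4 (0.07, adjusted p = 0.71) were not called, and Kcnq1 was too low to be tested. Plagl1 was higher (1.59, SE 0.19, adjusted p = 4.4e-06), at 17.3 ± 1.49 TPM against 5.59 ± 1.77 TPM, as were Meg3 (0.60, adjusted p = 0.023), Mcts2 (0.45, adjusted p = 0.048) and H13 (0.33, adjusted p = 0.043). In deletion E, a first-founder line of another library set, Plagl1 was at 18.8 and 17.5 TPM. Of 15 fibroblast markers, 5 were called higher and 0 lower in I-TEL and J, beside 19% of genes. The part of fibroblast RNA in the level of Plagl1 was not tested. The call of Mcts2 was lost in 17 of 25 alternative fits, with an adjusted p of 0.23 without the second I-TEL clone. Peg3 (-0.55) and Igf2r (-0.40) were lower. Meg3 was not called without either I-TEL clone (adjusted p 0.070 and 0.13), Igf2r without any 1 of the 4 I-TEL and J clones (0.074 to 0.11), and H13 without any of several single clones (largest adjusted p 0.37). The 4 libraries of the second founder are clones of 2 lines, each with its own deletion, so the founder cannot be told apart from those deletions.

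Over the 12 lines of the 20-library set, 30 of 45 members differed in level (51.6% of genes), with Phlda2 (10.3 to 83.4 TPM over all libraries), Zdbf2 (18.2 to 75.7 TPM), Impact (84.1 to 291 TPM), Cdkn1c and Rian first by adjusted p. Deletion E against XX Rnf12+/- called 0 of 45 members by edgeR, with 9 at an unadjusted p under 0.05, beside 0.0201% of genes.

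The 16 genes that set, keep or remove methylation, or bind imprinted regions, were also counted. In XCastO129, 6 of 16 were higher and 1 was lower than in XX Rnf12+/-, beside 35.5% of all genes called, and in X129OCast 7 were higher and 2 lower, beside 48.1%. Dnmt3a and Dnmt3b, the enzymes that add new methylation, were higher by 1.38 and 1.77 in XCastO129 and by 2.38 and 2.42 in X129OCast. Dnmt1, which copies it, was higher by 0.37 and 0.41, and Tet2, which oxidises it, was lower by 0.50 and 1.07. Zfp57 was lower by 0.65 in X129OCast. XX Rnf12+/- against XX wild type called 1 of 16 (Tet2, 0.82 higher), beside 2.94% of genes, and deletion E 0 of 16, beside 0.0201%. Second against first founder lines called 2 of 15 (Ctcf and Zfp42), beside 19% of genes. Methylation was not measured here.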

How the data were processed

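The authors deposited 1 table of raw read counts per gene, with 3 count columns for each of 30 libraries: all reads, 129 reads and Cast reads. Per the labels' processing notes, the tools named are Trim Galore 0.6.7, HISAT2 2.2.1, SAMtools 1.10 and HTSeq 0.12.4. The study's methods name SNPsplit for the split by allele. Of 55421 genes, 55240 were matched to GENCODE M21, and the 181 left unmatched made up 0.004% of a library's counts or less.

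The members and gene lists were chosen with earlier results of these data known. A 129 share is 129 counts over 129 plus Cast counts, given with at least 20 allelic counts, and its 95% Wilson interval covers counting error only. TPM was computed from the deposited counts and exon length. Differences were tested with edgeR 4.0.16 (R 4.3.3, quasi-likelihood test, TMM scaling) over autosomal genes with a mean count of at least 10, and allele ratios over those with a mean allelic count of at least 20, all adjusted by Benjamini-Hochberg over every gene tested. All 30 libraries entered each fit, except the founder comparison (20 libraries) and the test of allele balance (26). Standard errors are the log2 change over the root of F. Named were the distal chromosome 12 genes, members with a median share of at least 70% or at most 30% or a span of at least 40 points, members called in an allele comparison, and the members that moved most in level. Grb10, Mest and others given with their values were also chosen for depth or pattern after the values were seen. Tested on simulated counts for XX Rnf12+/- against XX wild type, the fit of 14950 genes recovered 65 of 100 genes changed by 1 and 95 of 100 changed by 2 on the log2 scale, and the allele fit of 8781 genes 41 and 88. DESeq2 1.42.0, limma 3.58.1, other filters and left-out libraries were alternatives.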

Additional observations from a re-analysis of the deposited data

Results flagged for a closer look

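Total levels of 3 members changed from XX Rnf12+/- by different amounts in the XO lines, by an edgeR test of the difference itself. Because both changes use the same XX Rnf12+/- libraries, this is the test of XCastO129 against X129OCast given above and not a further result. The change of Peg12 in XCastO129 minus that in X129OCast was 3.01 (log2, adjusted p = 0.00062), that of Snrpn -0.76 (adjusted p = 0.0090) and that of Tssc4 -0.39 (adjusted p = 0.036). The calls of Snrpn and Tssc4 were lost when single XO libraries were left out, as given above. Both X129OCast libraries lay below both XCastO129 libraries for Peg12, and above them for Snrpn and Tssc4.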

How the results depend on the processing

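Of 1982 recomputed values of called members, 1815 kept their direction and their side of the threshold, 166 kept the direction only, and 1 reversed, Peg3 in XCastO129 against XX Rnf12+/- without XCastO129 replicate 2 (log2 -0.13, and 1.102 without replicate 1). Where not stated, the cause was not tested. Members called in allele ratio went from 3 to 1 with limma in X129OCast, and from 2 to 0 in XCastO129 with limma, with only the groups compared, or without the 4 libraries over 100 TPM of Col1a1, which was chosen after seeing the data (genes called 391, against 155, 153 and 209). In total level, XX Rnf12+/- against XX wild type called 1 member, 2 with DESeq2, 11 without a filter on low counts and 0 with only the groups compared (genes 439, 489, 850 and 0). XCastO129 against X129OCast called 3, and 5, 8 and 0 (genes 965, 1117, 1414 and 8). XCastO129 against XX Rnf12+/- called 23, and 8 with only the groups compared (genes 5306 and 1399). Deletion E called 0, and 6 without a filter (genes 3 and 536), and the founder comparison 10, and 22 by line means of all libraries (genes 2721 and 5141).

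Leaving out 1 library at a time gave, in allele ratio, 1 to 3 members in X129OCast, 0 to 3 in XCastO129, 0 to 1 between the XO lines and 4 to 8 between founders. In total level it gave 18 to 21 in XCastO129, 1 to 5 between the XO lines, 0 to 2 in XX Rnf12+/- against wild type, 0 to 2 in deletion E and 5 to 11 between founders. Members mostly of 1 allele were 1, 0 with a minimum of 50 allelic counts or a limit of 80%, and 5 with a limit of 60%. The local 129 share on distal chromosome 12 was 23.0% in XX wild type and 20.0% in a window of 2 Mb, and 62.8% in XX Rnf12+/-, 58.7% in 2 Mb and 64.1% in 10 Mb.

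Replicate numbers were not taken to pair the libraries. Deviations of same-numbered libraries correlated at 0.694 for XX Rnf12+/- against XX wild type, where Col1a1 is also higher in number 1 of both, and at -0.276 to 0.119 in the other comparisons, each with 2 pairs. With the replicate block H19 fell by 1.70 in the former on the log2 scale and stayed called. With the replicate block, XCastO129 against XX Rnf12+/- called 22 members in total level and the founder comparison 8. Depth limits the shares: 760 of 1500 pairs of a member and a library were under 20 allelic counts.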
